A study of Lepidobatrachus laevis with 14 samples.

Results

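FGF10 and its receptor family, FGFR1, FGFR2, FGFR3 and FGFR4, are described here in the larval stomach of Lepidobatrachus laevis, Budgett's frog, whose large stomach serves carnivorous larvae. The 5 genes were taken by entry name from a table of 26940 rows, which list reads against human UniProt proteins (13574 reviewed entry names). They account for 24 rows, all reviewed and all tested. FGF10 and FGFR4 have 1 row each, FGFR1 has 10, FGFR2 has 9 and FGFR3 has 3, the extra rows being isoforms of 1 entry. The reviewed row with the highest mean count stands for each gene, namely O15520 for FGF10, P11362-19 for FGFR1, P21802-18 for FGFR2, P22607 for FGFR3 and P22455 for FGFR4. Names are those of the human counterparts, and reads shared among isoform rows or among the paralogous receptors may have been split, so receptor levels are uncertain to that extent.

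RNA was sequenced from the left and the right stomach of wild-caught, wild-type animals at Gosner stage 19, with 7 libraries per side and no treatment. Replicates 1, 2, 3, 5 and 6 of each side came from 1 stomach each, and replicates 7 and 8 were pools of 5. The facility that made the libraries differed between pools and single stomachs, and its part cannot be told apart from that of pooling. The study's title concerns SIM2 in asymmetric stomach morphogenesis, and the side comparison asks which transcripts are unequal between left and right. The titles of the single-stomach libraries share a stem across the sides and are compared below as 5 title pairs, whereas the pools carry no such stem. The stem is the word Foregut in replicate 1 and Gut in replicate 2, and FG with the replicate number in replicates 3, 5 and 6. Since separate cultures or clutches are not named, the p-values cover library-to-library spread.

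Fibroblast growth factors are secreted ligands that bind receptor tyrosine kinases together with heparan sulfate and signal through RAS and MAP kinases. In mouse and chick, Fgf10 is made by gut and lung mesenchyme and acts mainly on the epithelium, chiefly through a splice form of Fgfr2, and in the stomach it bears on growth and gland formation. FGFR1 is commonly a mesenchymal receptor, FGFR3 limits growth in cartilage, and FGFR4 in liver serves the endocrine ligand FGF19 with the co-receptor KLB.

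The libraries held between 12174670 and 62707669 counts, pools being shallower (up to 20022774) than single stomachs (from 21525694). Stomach mesenchyme and foregut markers were present in every library, with BARX1, a stomach mesenchyme factor, at 20.03 to 180.0 CPM (read counts scaled to the TMM-corrected library total) and SOX2, a foregut epithelial factor, at 4.62 to 129 CPM. Markers of other tissues were present as well. The summed level of 6 liver markers was 23090 to 37680 CPM in pools and 1463 to 10560 CPM in single stomachs, and that of 5 epidermal markers was 19.4 to 1354 CPM in pools and 1637 to 5063 CPM in single stomachs. The pool left 8 held the highest summed level of 5 erythroid markers, 68170 CPM, where the other pools held 18420 to 26880 CPM.

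In all 5 title pairs the left library held the higher FGF10 level. Left and right stood at 3.74 and 2.44 CPM in replicate 1, at 12.7 and 2.80 CPM in replicate 2, and at 8.87 and 5.51 CPM in replicate 3. They stood at 3.77 and 0.533 CPM in replicate 5, and at 2.21 and 1.67 CPM in replicate 6. The direction was therefore shared, but the left-to-right ratio ran from 1.33 in replicate 6 to 7.07 in replicate 5, with a geometric mean of 2.54. Over all tested rows, 3.46% were higher on the left in 5 of 5 pairs and 3.82% were lower.

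**Figure D1:**
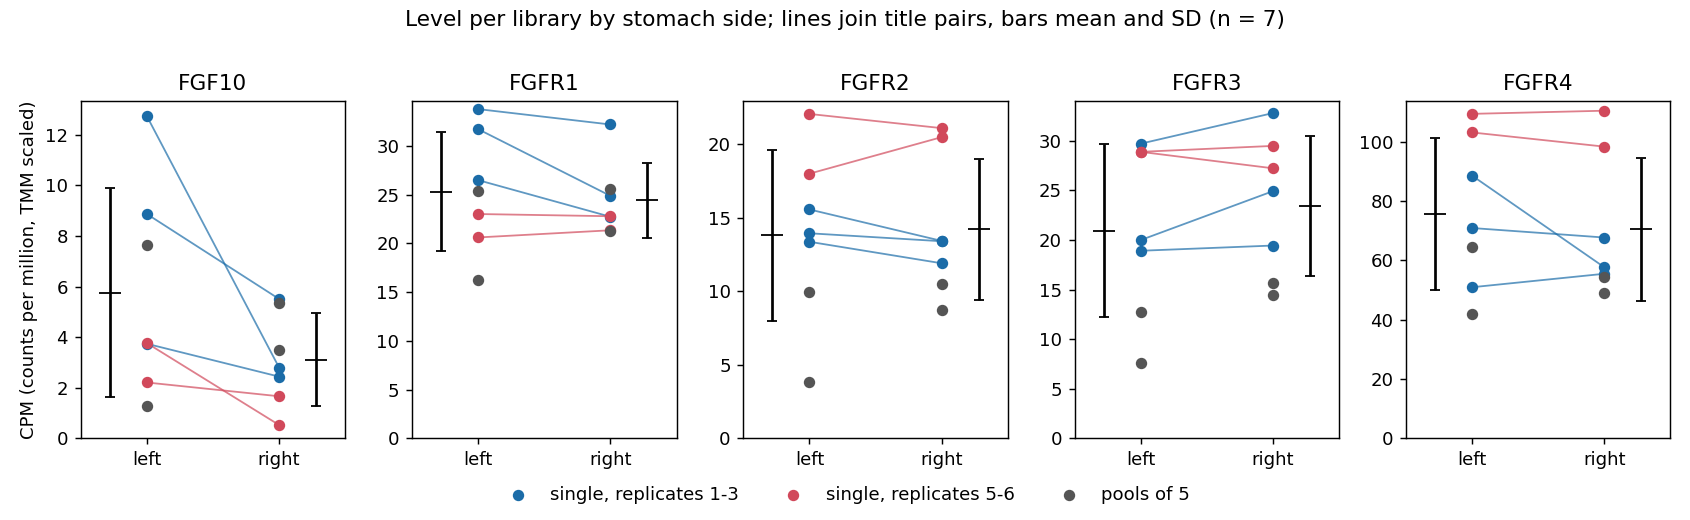
Level of each gene (CPM, y axis from 0) in the 7 left and 7 right libraries. Points are libraries, coloured by set, lines join title pairs, and the bars beside the points give mean and SD (n = 7 per side). All 5 FGF10 lines fall from left to right, while left 8, a pool, is at 1.30 CPM. FGFR2 and FGFR3 are lowest in the 4 pools.

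The counts behind these levels were small. Right 5 held 32 FGF10 reads and left 8 held 17, against 431 in left 2. The 95% exact Poisson interval in replicate 6 was 1.84 to 2.63 CPM on the left and 1.36 to 2.03 CPM on the right. These intervals overlapped, which is not a test of the difference. In the other 4 pairs the counting intervals of the sides did not meet, the closest being replicate 1, at 3.09 to 4.49 CPM against 1.92 to 3.06 CPM. Such intervals cover counting error only.

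The pools did not share the pattern. FGF10 was at 7.66 CPM in left 7 and 1.30 CPM in left 8, and at 5.36 CPM in right 7 and 3.49 CPM in right 8. The 2 left pools thus bracketed the 2 right pools. Across all 14 libraries the left mean of FGF10 was 5.76 ± 4.13 CPM and the right mean 3.11 ± 1.84 CPM (SD, n = 7 each), with overlapping ranges of 1.30 to 12.7 and 0.533 to 5.51 CPM.

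No fit of all 14 libraries called the side difference of FGF10, and its unadjusted p depended on the terms used. With library type (pool or single stomach) as a term, the quasi-likelihood test of edgeR gave a log2 fold, left minus right, of 0.93 ± 0.54 (SE; 95% interval -0.23 to 2.09; unadjusted p = 0.107, Benjamini-Hochberg adjusted p = 1.0 over 22158 rows). No row was called (0%), and 227 had an unadjusted p below 0.05. DESeq2 with the same terms also called 0, with 342 below that p. Both counts are under a share of 0.05 of the rows tested, the share below that p if no row differed. Neither fit has a term for the title pairs, and whether this lowered the counts was not tested. Exact two-sided permutation of the sides within library type, over 1512 arrangements of FGF10 alone, gave p = 0.220. Leaving out 1 library at a time gave edgeR log2 folds of 0.59 to 1.22, none called. Without the pool left 8 the fold was 1.18 ± 0.50 (unadjusted p = 0.0349, adjusted p = 1.0), and in the pools alone it was -0.01 ± 0.81.

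Within the title pairs, the call of FGF10 depended on the tool. The paired edgeR fit gave a log2 fold of 1.29 ± 0.35 (SE, n = 5 pairs; 95% interval 0.49 to 2.08; unadjusted p = 0.00552, adjusted p = 0.659), and called 0 of 22452 rows (0%), 1294 having an unadjusted p below 0.05. DESeq2 on the same pairs gave 1.30 ± 0.29 with adjusted p = 0.00606, in a test that called 0.543% of rows in either direction and 0.174% as higher on the left. The 5 pairs allow no exact two-sided p below 0.0625, and the exact exchange of sides within pairs gave FGF10 that value. When 1 pair was left out, DESeq2 still called FGF10 without replicate 1 (adjusted p = 0.0243), replicate 3 (0.0340) and replicate 6 (0.0109). It did not without replicate 2 (log2 fold 1.07, adjusted p = 0.339) or replicate 5 (0.96, 0.156), the pairs with the largest ratios.

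The difference between pools and single stomachs in the side effect was tested directly. For FGF10 the edgeR interaction was -1.27 ± 1.18 on the log2 scale (95% interval -3.83 to 1.28, adjusted p = 0.882), so the side differences of the library types were not separated by this test.

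**Figure D2:**
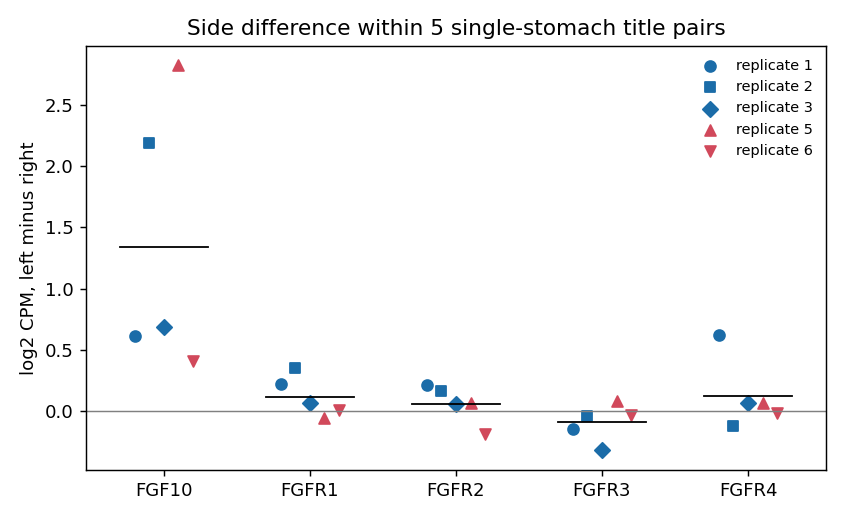
Log2 CPM, left minus right, for the 5 title pairs (y axis) for the 5 genes (x axis). Symbols mark replicates, colours the library sets (blue replicates 1-3, red replicates 5-6), and black lines the mean. FGF10 runs from 0.41 to 2.82 with every pair above 0, whereas FGFR1, FGFR2 and FGFR3 stay between -0.32 and 0.35.

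The rows that stand for the receptors were near parity between the sides. FGFR1 ranged from 16.2 to 33.8 CPM on the left (median 25.4) and from 21.3 to 32.2 CPM on the right (median 22.8). FGFR2 ranged from 3.82 to 22.0 CPM on the left (median 13.9) and from 8.72 to 21.1 CPM on the right (median 13.4). The sides overlapped over most of these ranges, and the same held for the other 2 receptors. FGFR3 ranged from 7.57 to 29.7 CPM on the left (median 19.99) and from 14.5 to 32.8 CPM on the right (median 24.9). FGFR4 ranged from 41.9 to 109 CPM on the left (median 70.9) and from 49.0 to 110.5 CPM on the right (median 57.7). Levels are not per length, so the genes are not ranked against each other.

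Within pairs, FGFR1 was higher on the left in 4 of 5, FGFR2 in 4, FGFR3 in 1 and FGFR4 in 3. The ratio of left to right lay between 0.802 and 1.28 for FGFR1, FGFR2 and FGFR3. FGFR4 reached 1.54 in replicate 1, where the levels were 88.6 (left) and 57.7 CPM (right), and lay between 0.918 and 1.05 in the other 4 pairs. In the paired edgeR fit the log2 folds were 0.12 ± 0.08 for FGFR1 (95% interval -0.07 to 0.31), 0.06 ± 0.09 for FGFR2 (-0.14 to 0.26), -0.09 ± 0.08 for FGFR3 (-0.27 to 0.10) and 0.12 ± 0.11 for FGFR4 (-0.13 to 0.38). None passed the threshold, with adjusted p between 0.894 and 0.930. These values are for the row that stands for each gene, and most other FGFR1 rows had larger folds, given with the isoform rows below.

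Across all 14 libraries the receptor intervals were wider. The edgeR log2 folds, left minus right, were 0.04 ± 0.15 for FGFR1, -0.10 ± 0.22 for FGFR2, -0.22 ± 0.17 for FGFR3 and 0.10 ± 0.20 for FGFR4, each with adjusted p = 1.0. The sign of FGFR1 turned without left 2 (-0.02), left 3 (-0.04) or left 7 (-0.0003), and that of FGFR2 turned without left 8 (0.04). Exact permutation within library type gave p = 0.843 for FGFR1, 0.663 for FGFR2, 0.224 for FGFR3 and 0.676 for FGFR4 (5 genes were tested in this way, FGF10 included). The pool left 8 held the lowest level of all 14 libraries for each of the 4 receptors, at 16.2 CPM for FGFR1, 3.82 CPM for FGFR2, 7.57 CPM for FGFR3 and 41.9 CPM for FGFR4.

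FGFR2 and FGFR3 were lower in the pools. FGFR2 was at 9.92, 3.82, 10.5 and 8.72 CPM in left 7, left 8, right 7 and right 8, and between 11.9 and 22.0 CPM in the 10 single-stomach libraries. FGFR3 was at 12.7, 7.57, 15.6 and 14.5 CPM in the same pools and between 18.9 and 32.8 CPM in single stomachs. For both receptors every pool lay below every single-stomach library, as did 10.8% of all tested rows. The edgeR log2 fold, pool minus single, was -0.99 ± 0.26 for FGFR2 (adjusted p = 0.00941) and -1.06 ± 0.20 for FGFR3 (adjusted p = 0.00131), or 0.502 and 0.478 of the single-stomach level. This test counts the left and right libraries of a title pair as separate. With 1 side at a time, FGFR2 was not called (left -1.29, adjusted p = 0.0722, right -0.74, 0.144), and FGFR3 was called on the left (-1.33, 0.0343) but not on the right (-0.83, 0.0537). This comparison called 6842 of 22158 rows (30.9%), 17.7% as lower in pools, so a lower level in pools was common in these data.

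FGFR4 was lower in pools without passing the threshold. It was at 52.5 ± 9.59 CPM (SD, n = 4) in pools and 81.3 ± 23.3 CPM (SD, n = 10) in single stomachs, with overlapping ranges of 41.9 to 64.7 and 51.0 to 110.5 CPM. The edgeR log2 fold was -0.63 ± 0.23 (adjusted p = 0.0504), on the edge of the threshold, and DESeq2, which called 36.4% of rows and 20.8% as lower in pools, called it (adjusted p = 0.0387). Without left 8 the edgeR adjusted p was 0.141. FGFR1 was at 22.1 ± 4.42 CPM in pools and 25.95 ± 4.87 CPM in single stomachs (log2 fold -0.23 ± 0.17, adjusted p = 0.348). FGF10 was at 4.45 ± 2.71 CPM in pools and 4.43 ± 3.73 CPM in single stomachs (0.20 ± 0.60, adjusted p = 0.827).

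**Figure D3:**
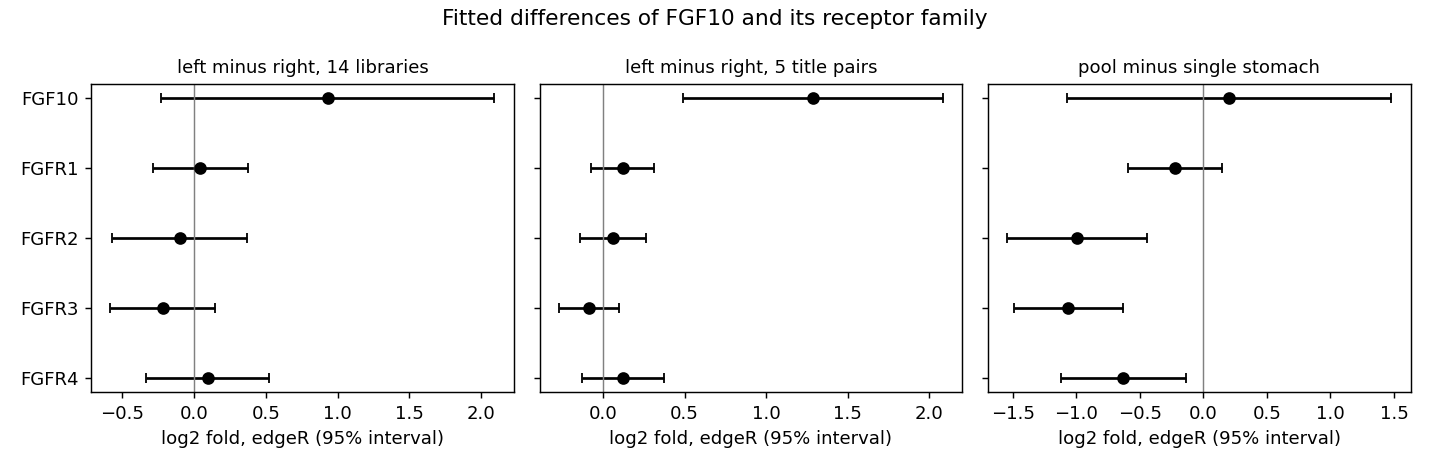
Log2 folds from edgeR (x axis) with 95% intervals for the 5 genes (y axis) in 3 comparisons. The left panel is left minus right over 14 libraries, the middle panel left minus right within 5 title pairs, and the right panel pool minus single stomach. FGF10 has the widest interval in each panel, and in the right panel the intervals of FGFR2, FGFR3 and FGFR4 lie below 0.

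Marker levels by library type are given for these receptor results. Of 12 epithelial markers 3 were called lower and 1 higher in pools, among them FOXA2, an endoderm factor (log2 fold -0.97, adjusted p = 0.0103), while CDX2, an intestinal factor, was higher (1.23, 0.00904). The summed epithelial markers ranged from 4905 to 10840 CPM in pools and from 3191 to 11670 CPM in single stomachs. The summed mesenchymal markers (10 rows) ranged from 432 to 685 CPM in pools and from 847 to 1643 CPM in single stomachs, without overlap. The collagen genes COL1A1 (618 CPM in single stomachs and 60.2 CPM in pools) and COL1A2 (171 and 33.05 CPM) made up most of that gap and were the only 2 of the 10 called. BARX1 was at 82.4 and 71.7 CPM, and 3 of the 10, FOXF2, VIM and PDGFRB, had positive log2 folds. All 6 liver markers tested were called higher in pools, as were 5 of 6 striated muscle markers, and 4 of 5 epidermal markers were called lower. Over all rows 13.1% were called higher in pools and 17.7% lower. The lower calls among epithelial (3 of 12) and mesenchymal markers (2 of 10) stand near that last share. The part of these tissues in the receptor result was not tested, and in bulk samples fewer cells of a type and less RNA per cell cannot be told apart.

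Markers also moved with side in the title pairs in which FGF10 was higher on the left. The left library held the higher summed level in 2 of 5 pairs for mesenchymal markers, 0 of 5 for epithelial markers, 0 of 5 for liver markers and 4 of 5 for neural crest markers. Mesenchymal markers summed to 847 to 1639 CPM in the left and 979 to 1643 CPM in the right single stomachs. Neural crest markers summed to 31.5 to 52.4 CPM on the left and 18.7 to 34.4 CPM on the right. Liver markers summed to 1463 to 5492 CPM on the left and 2551 to 10560 CPM on the right. Of the 6 neural crest markers up to 2 were at 0 in a right single-stomach library and none in a left one. The paired DESeq2 fit called 2 of the 6 higher on the left and 5 of the 6 liver markers lower, and edgeR called none of either list. Of all rows, that DESeq2 fit called 0.174% as higher on the left and 0.369% as lower. The same DESeq2 fit called lower on the left ACTA2 of smooth muscle (log2 fold -0.43, adjusted p = 0.0202), PDX1 of the epithelial list (-0.61, 0.00665), CSF1R of leukocytes (-0.99, 0.0427) and MYL7 of striated muscle (-3.60, 0.0316). All 5 leukocyte and all 6 striated muscle markers tested had negative paired folds. SOX2 was higher in the left library of 5 of 5 pairs (73.1 and 41.8 CPM, left and right, 0.92, DESeq2 adjusted p = 0.216). The 2 neural crest markers called were SOX10 and DBH. SOX10, a neural crest and glial factor, was at 5.77 and 1.08 CPM, left and right (log2 fold 2.76, DESeq2 adjusted p = 0.0227). DBH, an enzyme of noradrenaline synthesis, was at 4.93 and 3.05 CPM (0.91, 0.0304). The part of these tissues in the FGF10 difference was not tested.

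The single-stomach libraries divide into replicates 1 to 3 and replicates 5 and 6, a division known from earlier results of these data and therefore described without a test. FGF10 was at 6.02 ± 4.05 CPM (SD, n = 6) in replicates 1 to 3 and 2.04 ± 1.35 CPM (SD, n = 4) in replicates 5 and 6. FGFR1 was at 28.6 ± 4.52 and 21.9 ± 1.15 CPM. Both were thus lower on average in replicates 5 and 6, where FGFR2 and FGFR4 were higher. The ranges of the sets overlapped for FGF10 (2.44 to 12.7 against 0.533 to 3.77 CPM) and for FGFR1 (22.7 to 33.8 against 20.6 to 23.0 CPM). FGFR2 was at 13.6 ± 1.18 and 20.4 ± 1.73 CPM, with no overlap (11.9 to 15.6 against 17.98 to 22.0 CPM). FGFR4 was at 65.2 ± 13.7 and 105 ± 5.67 CPM, again without overlap, and FGFR3 at 24.3 ± 5.88 and 28.6 ± 0.971 CPM with overlap. The share of all rows without overlap between these sets is not given here, so the separation is not read as particular to these receptors. Summed epithelial markers were at 3191 to 6646 CPM in replicates 1 to 3 and 9646 to 11670 CPM in replicates 5 and 6, a sum mostly of 1 keratin, KRT8 (mean 5673 of 7099 CPM in single stomachs), and smooth muscle markers at 123 to 250.0 and 398.5 to 453 CPM. Depth differed too, at 21525694 to 34229305 counts against 47441280 to 62707669.

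Ordered by side and set, FGF10 was highest in left replicates 1 to 3, at 8.45 ± 4.51 CPM (SD, n = 3). It was next in the left pools at 4.48 ± 4.50 CPM and the right pools at 4.42 ± 1.32 CPM (SD, n = 2 each). Right replicates 1 to 3 (3.58 ± 1.68 CPM, SD, n = 3), left replicates 5 and 6 (2.99 ± 1.10 CPM) and right replicates 5 and 6 (1.10 ± 0.801 CPM, SD, n = 2 each) followed. Each step between neighbours in this order was smaller than the sum of their SDs. With 2 or 3 libraries per group, and title pairs across the sides, this is not a test of any step. Within replicates 1 to 3 alone the paired edgeR log2 fold of FGF10 was 1.14 ± 0.34 (adjusted p = 0.709), and within replicates 5 and 6 alone it was 1.53 ± 0.43 (adjusted p = 1.0).

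The isoform rows of a receptor did not move alike between library sets. For FGFR2, the rows P21802-18 and P21802-5 held 28.9% and 28.1% of the reads of the gene. Their mean level in replicates 5 and 6 was 1.5 and 1.37 times that in replicates 1 to 3. The rows P21802-13 (2.82 CPM in replicates 1 to 3 and 7.25 CPM in replicates 5 and 6) and P21802-2 (2.86 and 6.05 CPM) showed higher ratios, 2.57 and 2.11. The rows P21802-8 and P21802-19 had ratios of 1.03 and 0.970. The FGFR2 rows therefore spanned ratios from 0.562 to 2.57, and the 3 FGFR3 rows from 1.15 to 1.32. The lowest FGFR2 ratio was that of P21802-6, which held 0.947% of the reads of the gene and 0 to 35 reads per library. The next lowest was 0.955, for P21802-22. How reads were divided among these rows is not given in the sources used here, so the rows are not read as measured splice forms.

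**Figure D4:**
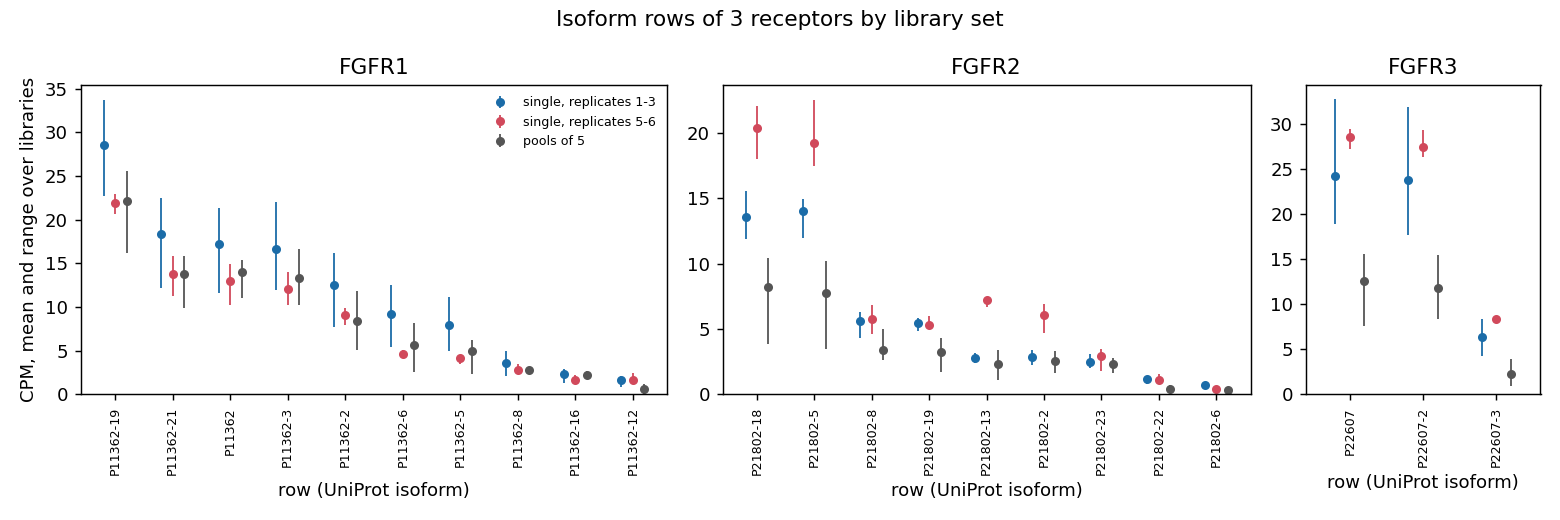
Mean level (CPM, y axis from 0) of each isoform row of FGFR1, FGFR2 and FGFR3 (x axis) in replicates 1-3 (6 libraries), replicates 5-6 (4 libraries) and pools (4 libraries). Vertical lines run from the lowest to the highest library. P21802-13 and P21802-2 stand apart in replicates 5-6, and the 3 FGFR3 rows are lowest in the pools.

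Between pools and single stomachs all 9 FGFR2 rows had negative log2 folds (-1.45 to -0.18) and 5 were called, and all 3 FGFR3 rows were called (-1.75 to -1.06), beside 30.9% of all rows called and 17.7% called lower. Of the 10 FGFR1 rows 9 were negative and 1 was called, P11362-12, with a log2 fold of -1.53 ± 0.55 (adjusted p = 0.0463). That row held 1.53% of FGFR1 reads and between 0 and 145 reads per library. Between the sides 0 of these 24 rows were called by edgeR in either fit. In the paired fit 9 of 10 FGFR1 rows and 8 of 9 FGFR2 rows had positive folds, and 3 of 3 FGFR3 rows negative ones. The FGFR1 rows P11362-21, P11362, P11362-3, P11362-2, P11362-6 and P11362-5 had folds of 0.24 to 0.32, with 95% intervals above 0. Each held 5.94% to 15.8% of FGFR1 reads, and adjusted p was 0.777 to 0.855. The row that stands for FGFR1 was at 0.12 (-0.07 to 0.31), and P11362-12 at -0.33. P11362-8 and P11362-16 were at 0.24 and 0.22, with intervals that included 0. Rows of 1 gene may share reads, so neither these counts nor these intervals are independent.

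Other FGF ligands showed no call between the sides. Of 22 ligands listed, FGF10 included, 13 had a row and 9 were tested. FGF7, a ligand close to FGF10 in receptor use, was at 10.6 ± 5.50 (left) and 8.94 ± 5.03 CPM (right) in single stomachs (SD, n = 5 each; paired edgeR log2 fold 0.33 ± 0.21, adjusted p = 0.894). FGF8, an early patterning ligand, was at 1.19 ± 1.08 and 0.561 ± 0.428 CPM (0.93 ± 0.36, 0.817). FGF9, an epithelial ligand that acts on mesenchyme in mouse gut, was at 1.33 ± 0.816 and 1.82 ± 0.833 CPM (-0.55 ± 0.19, 0.799). FGF10 and FGF9 thus had folds of opposite sign, of which neither passed in edgeR. FGF2, FGF11, FGF13, FGF14 and FGF16 had paired log2 folds of -0.19, 0.16, 0.14, -0.20 and -0.25. In pools FGF14, an intracellular relative that does not act through the receptors, fell from 23.9 ± 14.8 to 1.22 ± 0.448 CPM (log2 fold -4.29, adjusted p = 0.000211), and FGF8 fell from 0.877 ± 0.840 to 0.107 ± 0.0844 CPM (-2.72, 0.0255). The lowest library for FGF8 was at 0 CPM and the pools were shallower, so its fall rests on few reads.

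The co-receptor KLB and the decoy-like receptor FGFRL1 had rows as well. FGFRL1, which lacks a kinase domain, was at 30.2 ± 11.01 (left) and 28.01 ± 8.45 CPM (right) in single stomachs (SD, n = 5; paired log2 fold 0.09 ± 0.18, adjusted p = 0.958). KLB was at 47.7 ± 35.0 and 56.6 ± 33.9 CPM and lower on the left in 5 of 5 pairs (-0.38 ± 0.11, adjusted p = 0.678 by edgeR and 0.135 by DESeq2). KLB was chosen after its values were seen.

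Genes that FGF signalling induces were mostly a little higher on the left in the pairs. Of 12 feedback and target genes tested, 11 had a positive and 1 a negative paired log2 fold, with a median of 0.16 beside -0.001 over all rows, and 0 were called by edgeR or DESeq2. Over all 14 libraries 7 were positive and 5 negative, with a median of 0.04 beside 0.01. The transcription factor ETV4 averaged 42.5 ± 10.9 (left) and 32.7 ± 5.90 CPM (right) in single stomachs (log2 fold 0.36 ± 0.12; adjusted p = 0.777 by edgeR and 0.352 by DESeq2). The membrane-linked inhibitors SPRED1 (0.26 ± 0.08, adjusted p = 0.696 by edgeR) and SPRED2 (0.39 ± 0.13, 0.764) were higher on the left in 5 and 4 of 5 pairs. The Sprouty inhibitors SPRY1, SPRY2 and SPRY4 had log2 folds of 0.18, 0.14 and 0.11.

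DUSP6, a phosphatase that dampens MAP kinase, was at 39.2 ± 11.9 (left) and 38.9 ± 11.2 CPM (right) (0.01 ± 0.12). IL17RD, an inhibitor also called SEF, had the highest fold of the list, at 4.17 ± 1.14 and 2.69 ± 1.52 CPM (SD, n = 5; 0.72 ± 0.18; adjusted p = 0.628 by edgeR and 0.124 by DESeq2), with the left library above the right in 5 of 5 pairs. IL17RD was chosen after its values were seen.

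**Figure D5:**
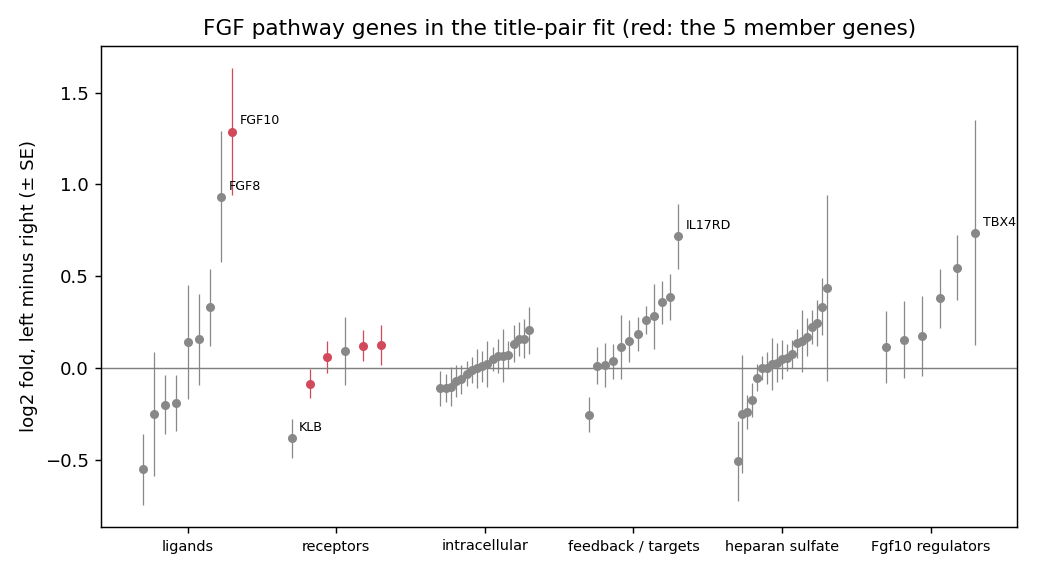
Paired edgeR log2 folds, left minus right (y axis, bars ± SE), of FGF pathway genes grouped by role (x axis). Each point is 1 gene, ordered within its group, and the 5 genes described here are red. FGF10 is the highest point at 1.29, the receptors lie near 0, and 11 of 12 feedback and target genes lie above 0.

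Genes named in mouse or chick as regulators of Fgf10 were also listed. All 6 tested had positive paired log2 folds (0.11 to 0.74, median 0.28 beside -0.001 over all rows) and 0 were called. Over 14 libraries 2 were positive and 4 negative. BARX1, FOXF1 and FOXF2 are also in the mesenchymal marker list, so the lists are not separate. TBX5, a lateral plate factor upstream of Fgf10 in the forelimb, was at 4.92 ± 3.28 (left) and 3.38 ± 2.38 CPM (right) in single stomachs, higher in 5 of 5 pairs (0.54 ± 0.18; adjusted p = 0.771 by edgeR and 0.451 by DESeq2). TBX4 was at or below 1.34 CPM on average on each side. BARX1 had a fold of 0.38 in the pairs and -0.11 over 14 libraries. TBX4, TBX5 and BARX1 were chosen from their list after their values were seen. In pools ISL1, a mesodermal factor, was lower (log2 fold -1.50, adjusted p = 0.0328).

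Of 81 other pathway genes listed 64 had a row and 59 were tested. Between the sides 29 had a positive and 30 a negative log2 fold over 14 libraries, and 38 and 21 in the pairs, with 0 called by edgeR in either fit and 0 of 55 by DESeq2 in the pairs. In pools 4 of the 59 were called higher and 11 lower, where 13.1% and 17.7% of all rows were. Their median was -0.25 beside -0.08 over all rows. Among the 5 heparan sulfate genes called lower were NDST1, which sulfates the chains (-0.97, adjusted p = 4.8e-05), the core proteins AGRN (-1.30, 0.000615) and GPC1 (-0.99, 0.00198), and NDST2 (-0.54, 0.0198). Among intracellular members the kinase BRAF (0.52, 0.0222) was higher in pools, and the kinase MAP2K1 (-0.60, 0.00525) was lower. SPSB1 (0.82, 0.00584) was higher and FLRT3 (-0.56, 0.0103) and DUSP6 (-0.69, 0.0375) were lower among feedback and target genes.

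The genes whose profile over the 14 libraries was most like that of each member were found by the root mean square difference of centred log2(CPM + 0.5), among 11202 reviewed entries of at least 1 CPM. For FGF10 they were PCDH19 (entry PCD19, difference 0.369), PRDM16 (PRD16, 0.492), FRZB (SFRP3, 0.503), ADAMTSL3 (ATL3, 0.543) and HS3ST3A1 (HS3SA, 0.551), where the median over all candidates was 1.04. For FGFR1 they were ADNP2 (0.0767) and CBFB (PEBB, 0.102), for FGFR2 GNE (GLCNE, 0.137) and PRRT4 (0.159). For FGFR3 GNE (0.188) was among them, and for FGFR4 they were AKNA (0.154) and KIAA1328 (K1328, 0.164). The medians for the receptors lay between 0.485 and 0.708. FGF10 had less close neighbours than the receptors on this scale, where its median over all candidates was also higher. FGF10 also had fewer reads, a mean of 136 per library against 550 to 2818 for the receptors. The part of counting noise in these distances was not tested. The libraries share sets and depth, so these distances are a description.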

How the data were processed

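RNA of 14 libraries, 7 left and 7 right, was measured. The authors deposited raw read counts per human UniProt row, whole numbers without normalization. Tools listed per the submitters' processing notes are Bowtie2 2.1.0, Bowtie, SAMtools 0.1.19, DESeq and Trimmomatic, with no roles named. The way reads were assigned to rows, and any use of strand, were not given in the sources used here. A table scaled per library was not used.

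From the counts, edgeR 4.0.16 in R 4.3.3 (quasi-likelihood test, TMM, filterByExpr by side, Benjamini-Hochberg over all rows at 0.05) compared left with right with library type as a term, left with right within 5 title pairs, and pools with single stomachs. DESeq2 1.42.0 was an alternative. SE is the log2 fold over the root of F. CPM uses TMM-scaled totals of filtered rows. Exact permutations used log2(CPM + 0.5). The programs were tested on simulated data. Members and lists were chosen with earlier results of these data known. Genes were named by a rule: the 5 members, tested ligands, FGFRL1, fixed feedback genes, up to 4 called per list, and nearest profiles. Others are marked in the text. Some genes the rule names are not reported here.

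Same-stem libraries deviated together from the mean of their side and library type (r = 0.63, 0.649, 0.647, 0.775 and 0.849 in replicates 1, 2, 3, 5 and 6), and at 0.482, 0.266, 0.0981, 0.461 and 0.461 within library sets. On the first values the title stems were treated as pairs. Those values include the difference between replicates 1 to 3 and replicates 5 and 6, so they do not alone show that a stem is 1 stomach. Within sets the values of replicates 5 and 6 are equal because deviations from a mean of 2 libraries mirror each other. No 2 libraries of a side agreed within sampling noise (chi-square over its degrees of freedom 16.5 to 369 in 42 comparisons).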

Additional observations from a re-analysis of the deposited data

Results flagged for a closer look

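FGFR1 stood at 32.2 CPM in right 3, apart from the other 6 right libraries by 0.603 of the range of the 7. It was the only value flagged among 40 groups of 4 to 10 libraries examined for the 5 genes, where chance flags about 1 in 20 groups.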

How the results depend on the processing

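Over 410 recomputed values 369 kept their direction and side of the threshold, or, for counts of calls, stayed within 1.5 times. With replicate block in the 14-library edgeR fit, FGF10 was 0.93 ± 0.44 (adjusted p = 1.0, 0 rows called), and without the pairing in the single-stomach fit it was 1.28 ± 0.61. All further values are log2 folds or counts of called rows, and the cause of a change was not tested.

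Left minus right over 14 libraries, signs turned for FGFR2 in single stomachs alone (0.046) and, in pools alone, for FGF10 (-0.013) and FGFR1 (-0.20). Leaving out 1 library gave -0.045 to 0.12 for FGFR1, -0.23 to 0.041 for FGFR2 and 0.59 to 1.22 for FGF10. DESeq2 called 12 rows with a replicate block and 5 with library sets, alternatives chosen after seeing the data, and FGF10 was in neither.

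In the pairs, DESeq2 called 103 rows and FGF10 at 1.30. With rows summed by entry name it called 77 and FGF10 at 1.31. Without replicate 1, 2, 3, 5 or 6 it called 23, 42, 103, 97 and 96 rows, with FGF10 called at 1.49, 1.48 and 1.55 without replicates 1, 3 and 6. These fits without a pair and on summed rows were added after seeing the data. FGFR4 turned without replicate 1 (-0.0044 by edgeR, -0.0050 by DESeq2), its edgeR range being -0.0044 to 0.18. Replicates 5 and 6 alone gave 2 called rows, FGFR1 at -0.025, FGFR2 at -0.068 and FGFR3 at 0.020.

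Pool minus single, left libraries alone gave 2565 called rows, FGF10 at -0.50 and FGFR2 uncalled at -1.29. Right libraries alone gave 2566 called rows, with FGFR2 (-0.74) and FGFR3 (-0.83) uncalled. FGF10 ran from -0.12 to 0.60 when 1 library was left out. FGFR4 passed the threshold with no filter (-0.66), by DESeq2 (-0.61), on summed rows (-0.65) and without right 1, left 2 or right 2, its range being -0.74 to -0.51. DESeq2 called 142 rows for the interaction. FGF10 had as few as 17 reads in a library, left 8.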
